A study of Mus musculus with 30 samples.

Results

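The clustered protocadherins are 57 protein-coding genes on mouse chromosome 18, chosen by their symbols from the 21938 protein-coding genes of the main chromosomes in the GENCODE M21 annotation. They form an alpha group of 14 genes, a beta group of 22 and a gamma group of 21, and all 57 are transcribed from the plus strand. With 50 kb added to either side the cluster spans chr18:36880184-37891873 of GRCm38, a stretch of 1012 kb. GENCODE gives the symbol Pcdha11 to 2 gene records. The one that starts at 37005203 is Pcdha10 in RefSeq and is called so here.

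The study examined E14 mouse embryonic stem cells in which CTCF carries an auxin-inducible degron (genotype CTCF AID). Chromatin immunoprecipitation and sequencing (ChIP-seq) was done without the auxin IAA (0 h) and after 12 h of IAA, which sends the tagged CTCF to the proteasome. All cells, those at 0 h included, carried the degron and were grown without serum in medium with LIF, PD0325901 and CHIR99021. CTCF and the cohesin subunit SMC1A had 1 library per time, and the remodelers CHD4, CHD8, SMARCA4 and SMARCA5, each biotin-tagged in its own degron line, had 2 libraries per time.

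Each clustered protocadherin of the alpha and gamma groups is made from its own first exon, with its own promoter, spliced to constant exons at the end of the group, whereas a beta gene is a single large exon. The proteins are cell surface adhesion molecules, known above all from neurons, where each cell uses a few of the promoters and the resulting set of proteins marks the cell's identity. CTCF is known to bind at many of these promoters and at distal enhancers, and cohesin is known to loop an enhancer to a promoter between CTCF sites that face each other. The remodelers are ATPases that move or remove nucleosomes: CHD4 belongs to the NuRD complex, CHD8 is a known CTCF partner, SMARCA4 (BRG1) is the motor of BAF complexes, and SMARCA5 (SNF2H) is the motor of ISWI complexes.

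A promoter was taken as the start site with 1 kb to either side, and it counted as occupied where a listed peak overlapped it by at least 1 bp. The smallest distance between 2 member start sites was 4131 bp, so no promoter windows overlapped. The lists ranged from 40880 to 187294 peaks for the remodelers and went from 29934 to 2248 for CTCF and from 16724 to 10 for SMC1A. The replicate 2 lists of CHD4 stood apart from the other remodeler lists, since their median peak width in the cluster was 110.5 bp at 0 h and 86 bp at 12 h, against 302 to 659 bp in the other 14 lists. Read depth is unknown, and the labels do not say whether replicates came from separate cultures. Signal too weak for the authors' caller leaves no entry in a list, and binding in fewer cells cannot be told apart from weaker binding in every cell. Members resemble one another in sequence, and how reads that fit several copies were treated is not given in the sources used here. The promoters of the pluripotency genes Pou5f1, Sox2 and Nanog held a remodeler peak in 7, 8 and 8 of the 8 remodeler libraries at 0 h, and in 8, 8 and 8 at 12 h.

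CTCF occupied the start sites of most clustered protocadherins at 0 h. A CTCF peak lay within 1 kb of the start site of 47 of the 57 genes (82.5%), against 13.7% of all protein-coding promoters. Both shares come from 1 library, so they hold no variation between libraries and carry no test. The 47 genes were 13 of 14 alpha, 16 of 22 beta and 18 of 21 gamma members. The 10 members without a CTCF peak were Pcdhac2 in the alpha group, Pcdhb1, Pcdhb9, Pcdhb16, Pcdhb19, Pcdhb20 and Pcdhb21 in the beta group, and Pcdhgc3, Pcdhgc4 and Pcdhgc5 in the gamma group. Of the 5 C-type genes, which lie at the end of the alpha and gamma groups and are known to be used more uniformly across neurons, Pcdhac1 alone had one.

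The height of the CTCF peaks, given as the authors' fold enrichment over local background, varied within each group. In the alpha group it ran from 3.5 at Pcdha9 to 25 at Pcdhac1, with a median of 12.6, and the next highest were Pcdha7 at 16.9 and Pcdha4 at 16.2. In the beta group it ran from 5.99 at Pcdhb22 to 23.6 at Pcdhb3, with a median of 11.9, and Pcdhb8 and Pcdhb17 followed at 22.1 and 17.5. In the gamma group it ran from 9.04 at Pcdhga2 to 39.1 at Pcdhgb6, with a median of 17.1. Pcdhgb7 stood close to Pcdhgb6 at 37.4, and Pcdhgb5 came next at 23.3. The Pcdhgb6 and Pcdhgb7 peaks thus stood well above every other peak of the cluster, and they ranked at the 98.7th and 98.0th percentile of the whole CTCF list by −log10 p.

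The whole cluster with its flanks held 71 CTCF peaks at 0 h. That is 7.02 peaks per 100 kb, 6.39 times the 1.1 per 100 kb of the whole genome. The peaks were of ordinary height: their median fold enrichment was 13.2 against 12.2 for all 29934 CTCF peaks, and their median percentile by −log10 p was 52.8. The cluster was thus dense in CTCF peaks of about the usual height.

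**Figure D1:**
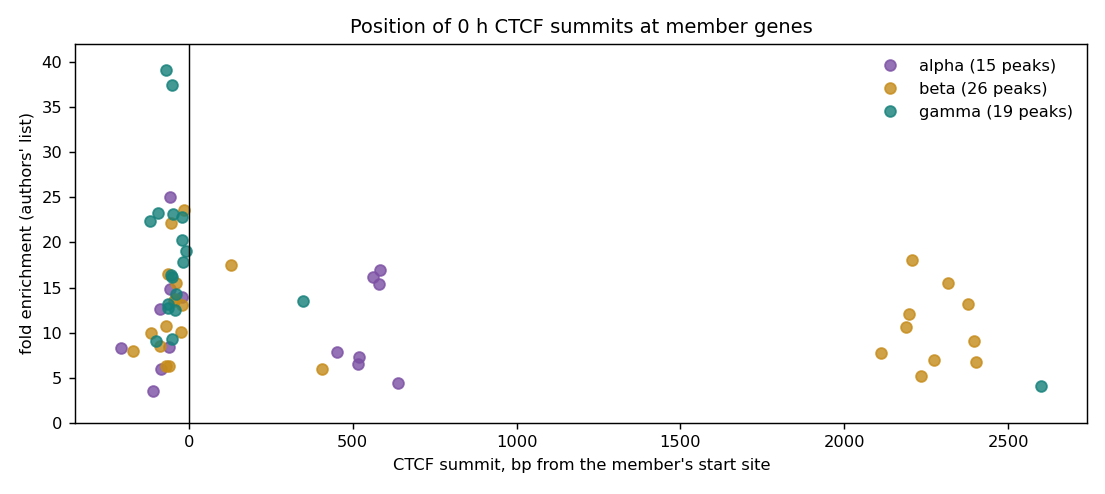
Position of the 0 h CTCF summits at member genes, in bp from the start site (horizontal), against the fold enrichment in the authors' list (vertical). Each point is 1 peak, coloured by group. Alpha summits fall just before the start site or 452 to 639 bp after it, gamma summits lie just before it apart from 2, and 10 beta summits lie 2111 to 2401 bp after it.

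Within the genes, CTCF summits took a few fixed places, shown in the plot of summits by distance. Of the 71 peaks, 49 lay within 1 kb of a member's start site. The gamma group had 18 such peaks, of which 17 had a summit between −118 and −10 bp from the start site (median −52 bp), while that of Pcdhga12 lay 347 bp after it. The beta group had 16, of which 14 had a summit between −171 and −14 bp (median −58.5 bp), while those of Pcdhb17 and Pcdhb22 lay 127 and 407 bp after it. The alpha group had 15 and was split: 8 summits lay between −207 and −20 bp (median −73 bp) and 7 lay 452 to 639 bp after the start (median 563 bp). The 7 downstream summits lay in the coding exons of Pcdha1, Pcdha4, Pcdha5, Pcdha7, Pcdha8, Pcdha11 and Pcdha12, and Pcdha5 and Pcdha12 had a separate peak at each place. Several alpha peaks were wide enough to cover both places: the Pcdha1 peak reached from 36929984 to 36931016 around a start site at 36930184.

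The beta genes had a second place of their own. In 10 of them a further CTCF summit lay in the coding exon, 2111 to 2401 bp after the start site (median 2253.5 bp), with a fold enrichment of 5.15 to 18 (median 9.86). These genes were Pcdhb3, Pcdhb4, Pcdhb8, Pcdhb10, Pcdhb13, Pcdhb14, Pcdhb15, Pcdhb17, Pcdhb18 and Pcdhb20. Pcdhb20 had no peak at its promoter, so for it the exon peak was the nearest one. At Pcdhb14 the exon peak had a fold enrichment of 15.5 against 13.5 at the promoter, and at Pcdhb18 the values were 18 and 8.47. At Pcdhb3, in contrast, the promoter peak was the higher one, with 23.6 against 6.77. A single gamma gene, Pcdhgc3, had a peak of this kind, 2602 bp after its start, with a fold enrichment of 4.09.

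The direction of the CTCF motif separated the promoter sites from the other sites, and it is shown here as the letters searched for. The motif was modelled from 5000 CTCF peaks on other chromosomes and searched on both strands within 100 bp of each summit. The model is 19 bp long, and its consensus, with N where no base reaches 60%, reads:
CTCF model: NNNNCCANNAGGGGGCGCN
fixed pattern used as the alternative: CCANNAGNNGGC
The model matched 91.2% of all CTCF sites, 5% of sites shifted by 100000 bp, and 41 of the 71 sites of the cluster (57.7%). Of the 49 promoter sites, 30 had a match, and in all 30 the match was on the strand of the genes. Of the 22 other sites, 11 had a match, and in all 11 it was on the opposite strand. Among matched CTCF sites of the whole genome, 50% lay on the plus strand. The fixed pattern, from which the model was started, was found at 46.2% of all CTCF sites. It was on the genes' strand at 5 cluster sites, all at promoters, and on the opposite strand at 8, none at promoters. A match describes the letters and is not a measured binding site.

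The groups differed in how many promoter sites matched. All 16 beta sites and 13 of the 15 alpha sites had a match, but 1 of the 18 gamma sites had one, at Pcdhga3. A search of the window from 250 bp before to 50 bp after each start site gave the same order, with a match at 11 of 14 alpha, 19 of 22 beta and 1 of 21 gamma genes. All 31 matches were on the gene's own strand, whereas 16.4% of all promoter windows of that length had a match and 57.4% of those were on the gene's strand. The match lay between −221 and −62 bp from the start in alpha genes (median −78 bp) and between −176 and −32 bp in beta genes (median −58 bp). Pcdhb9, Pcdhb16, Pcdhb19, Pcdhb20 and Pcdhb21 had the match although no CTCF peak was listed at their promoters. The gamma promoters, among them Pcdhgb6 and Pcdhgb7 with the highest peaks of the cluster, mostly had no match to this model. A match had to reach the score that 5% of shifted sites reached, and weaker matches were not counted. The 1 match among 18 gamma sites cannot be told apart from a background match.

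**Figure D2:**
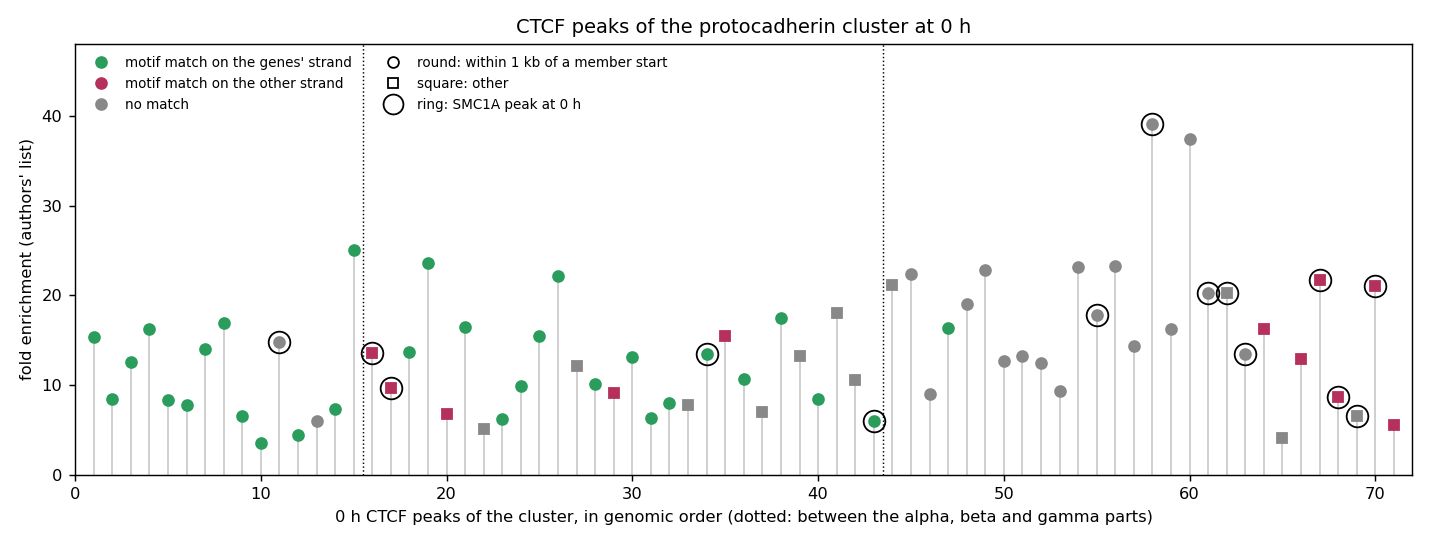
The 71 CTCF peaks of the cluster at 0 h in genomic order (horizontal) with their fold enrichment in the authors' list (vertical). Round points lie within 1 kb of a member's start site and squares elsewhere, green and red mark a motif match on the genes' strand and on the other strand, grey no match, and a ring a 0 h SMC1A peak. All 30 matches at promoters are green and all 11 elsewhere are red.

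After 12 h of IAA, 1 of the 57 members had a CTCF peak within 1 kb (1.75%), against 1.83% of all protein-coding promoters. It was Pcdhgb7, whose peak had a fold enrichment of 37.4 at 0 h and 16.9 at 12 h, each within its own list. Of the 47 members with a 0 h peak, 46 had none at 12 h, and of all 3001 promoters with a 0 h peak 86.6% had none. Over the whole cluster 1 of 71 CTCF peaks was listed again at 12 h (1.41%), against 7.44% of all CTCF peaks. Pcdhgb6 had the highest peak at 0 h and none at 12 h. When all CTCF peaks were put in 10 equal classes by −log10 q, the highest class held 4 peaks of the cluster, of which 1 was listed at 12 h, against 43.7% of all peaks of that class. The class below it held 8 peaks of the cluster, none of them listed at 12 h, against 17% of all. There is 1 CTCF library per time, so these values compare 2 libraries and carry no test.

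Cohesin was listed at few of the members. An SMC1A peak lay within 1 kb of 9 of the 57 start sites at 0 h (15.8%), against 11.1% of all promoters. Both shares come from 1 library and carry no test. Among SMC1A peaks with a −log10 q of at least 5 the members' share was 5.26%. The share of all promoters at that threshold was not computed, so 5.26% cannot be set against 11.1%. The 9 genes were Pcdha10 and Pcdha11, Pcdhb14 and Pcdhb22, and Pcdhga8, Pcdhgb6, Pcdhga11, Pcdhga12 and Pcdhgc3. Their SMC1A fold enrichments ran from 2.78 at Pcdhgc3 to 6.27 at Pcdhga12, and Pcdhgb6, with the highest CTCF peak, had 5.08. Pcdhgb7, with the second highest CTCF peak, had no SMC1A peak. Among members with a CTCF peak, 8 of 47 (17%) had an SMC1A peak, against 46.1% of all promoters with a CTCF peak. Among the 71 CTCF sites the share was 14 (19.7%) against 45.8% of all CTCF sites. The gap was present among high CTCF peaks too: 2 of 8 cluster sites had SMC1A in the class below the highest, against 73.2% of all sites of that class, and 2 of 4 in the highest class, against 78.3%. None of these 9 members had an SMC1A peak at 12 h, where the whole list held 10 peaks, and 99.9% of all promoters with a 0 h SMC1A peak had none either.

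SMC1A was listed at a larger share of the distal sites than of the promoter sites. Of the 11 sites that were neither at a promoter nor 1 to 3 kb downstream of a start site, 7 had SMC1A, against 7 of the 49 promoter sites and none of the 11 downstream sites. A pair of them lay in the intergenic stretch between the alpha and beta groups, at chr18:37217234-37217658 and chr18:37218241-37218586, 73967 and 74899 bp after the start of Pcdhac2. Their CTCF fold enrichments were 13.6 and 9.62, and both had the motif on the strand opposite to the genes. Another lay at chr18:37761370-37761903, 5941 bp after the start of Pcdhga11, with a fold enrichment of 20.3 and no match. The other 4 lay beyond the last gamma exon, in introns of Diaph1, at chr18:37852097-37852577, chr18:37877288-37877725, chr18:37880254-37880579 and chr18:37883449-37883967. Their fold enrichments were 21.7, 8.72, 6.53 and 21, and 3 of the 4 had the motif on the opposite strand. None of these 7 sites had a CTCF peak at 12 h.

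**Figure D3:**
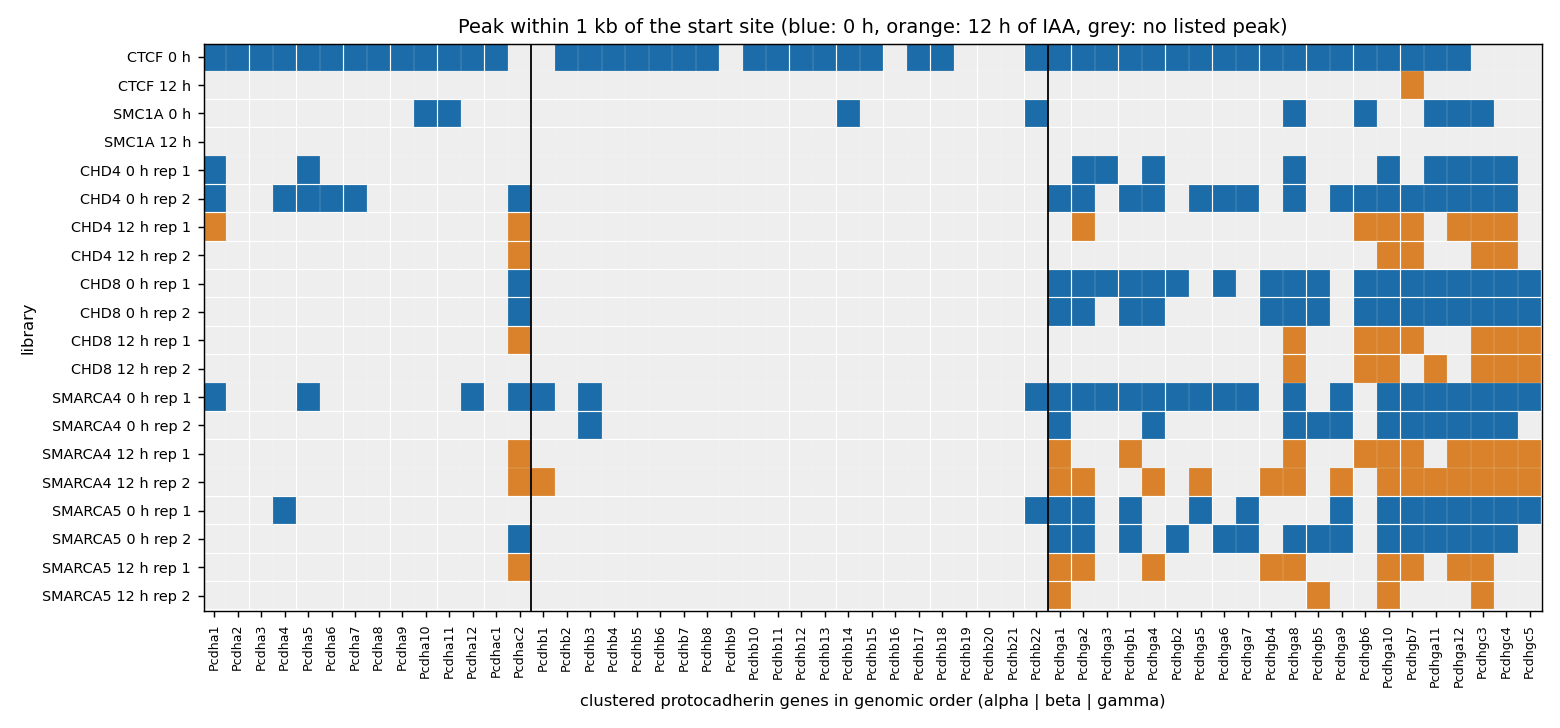
Listed peaks within 1 kb of the start site of each member (horizontal, in genomic order, with lines between the alpha, beta and gamma groups) in each of the 20 libraries (vertical). Blue marks a peak at 0 h, orange a peak at 12 h and grey no listed peak. The remodeler peaks gather in the gamma group, and the beta group is almost empty below the CTCF rows.

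Remodeler peaks at 0 h were concentrated on the gamma promoters. All 21 gamma genes had a remodeler peak in at least 1 of the 16 libraries, against 7 of 14 alpha and 3 of 22 beta genes. Over all 57 members that is 31 genes, where 71% of all protein-coding promoters had one. The 26 members with none were 7 alpha and 19 beta genes, beginning with Pcdha2, Pcdha3 and Pcdha8 in genomic order. No CHD4 or CHD8 library had a peak at any beta promoter. The beta genes with a peak were Pcdhb1, in SMARCA4 replicate 1 at 0 h and replicate 2 at 12 h, Pcdhb3, in both SMARCA4 libraries at 0 h, and Pcdhb22, in 1 SMARCA4 and 1 SMARCA5 library at 0 h. Pcdhb3 had the highest CTCF peak of the beta group.

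In the 2 CHD4 libraries of 0 h, 9 and 16 of the 21 gamma promoters held a peak, and in those of 12 h 7 and 4 did. The counts for CHD8 were 18 and 15 without IAA and 7 and 7 with it. For SMARCA4 they were 18 and 11, then 10 and 14. For SMARCA5 they were 13 and 15, then 9 and 4. Both 12 h libraries thus lay below both 0 h libraries for CHD4, CHD8 and SMARCA5, and the SMARCA4 libraries of the 2 times overlapped. Within the lists whose peak names share a naming style, the 12 h count was the lower one each time. The labels name no batch, and what the style stands for is unknown. For SMARCA4 and SMARCA5 each such comparison sets 1 library against 1. CHD4 had 9 and 16 at 0 h and 4 at 12 h. SMARCA4 had 18 and 14 in the first style and 11 and 10 in the second, and SMARCA5 13 and 4, and 15 and 9. The other 12 h CHD4 library (7) had no 0 h partner of its style, and all CHD8 lists share 1 style. The CHD4 lists also differed in peak width. Those of replicate 1, with the wider peaks, held 9 at 0 h and 7 at 12 h. Those of replicate 2, with the narrow peaks, held 16 and 4.

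As shares of the gamma promoters, 59.5% ± 23.6 (SD, n = 2) held a CHD4 peak at 0 h and 26.2% ± 10.1 at 12 h, a difference of −33.3 percentage points. For CHD8 the shares were 78.6% ± 10.1 and 33.3% with both 12 h libraries equal, a difference of −45.2 points. For SMARCA5 they were 66.7% ± 6.73 and 31% ± 16.8, a difference of −35.7 points. For SMARCA4 they were 69% ± 23.6 and 57.1% ± 13.5, a difference of −11.9 points that was within the spread of the replicates (pooled SD 19.2). With the SMARCA4 lists cut to equal length its difference was −23.8 points. Of all protein-coding promoters, 63.2% held a CHD4 peak at 0 h, 59.7% a CHD8, 59.9% a SMARCA4 and 47.9% a SMARCA5 peak. Of the 3001 promoters with a 0 h CTCF peak the 0 h shares were 92.8%, 88.6%, 87.3% and 75.5%. These were above the gamma share for each remodeler. Over all protein-coding promoters the differences were −2.61 points for CHD4, −1.21 for CHD8, 2.66 for SMARCA4 and 2.63 for SMARCA5. Over the 3001 promoters with a 0 h CTCF peak they were −5.98, −5.95, 1.63 and −0.7 points. These shares carry no test, since 2 libraries against 2 cannot reach an exact permutation p of 0.05. One library decided some values: without SMARCA4 replicate 1 at 0 h the gamma difference was 4.76 points, and without CHD4 replicate 2 or replicate 1 at 0 h it was −16.7 or −50 points. Without SMARCA5 replicate 2 at 12 h it was −23.8 points, and among peaks with a −log10 q of at least 5 that of SMARCA5 was −11.9 points.

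**Figure D4:**
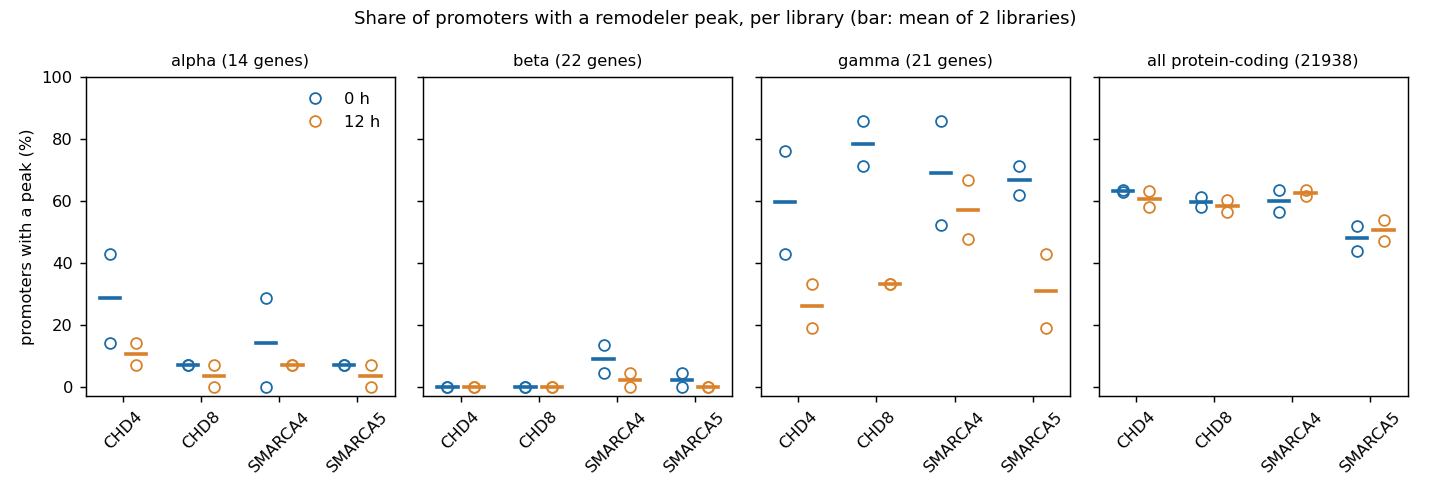
Share of promoters with a peak in each remodeler library (vertical, percent) at 0 h (blue) and 12 h of IAA (orange) for the alpha, beta and gamma genes and for all 21938 protein-coding genes. Circles are libraries and bars the mean of the 2 libraries. In the gamma panel both 12 h circles lie below both 0 h circles for CHD4, CHD8 and SMARCA5.

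The alpha and beta promoters had few remodeler peaks at either time. Of the 14 alpha promoters CHD4 occupied 2 and 6 at 0 h, then 2 and 1. CHD8 had 1 and 1, then 1 and 0. SMARCA4 had 4 and 0, then 1 and 1, and SMARCA5 had 1 and 1, then 1 and 0. No remodeler's alpha counts were separated between the times. Of the 22 beta promoters SMARCA4 had 3 and 1 at 0 h and 0 and 1 at 12 h, and SMARCA5 had 1 and 0, then 0 and 0. Over all 57 members the difference was −16.7 points for CHD4, −17.5 for CHD8, −8.77 for SMARCA4 and −14.9 for SMARCA5, and the times overlapped for SMARCA4 alone. Without SMARCA4 replicate 1 at 0 h its difference was 2.63 points. Without CHD4 replicate 1 at 0 h that of CHD4 was −26.3 points, and without replicate 2 at 0 h it was −7.02 points. The SMARCA5 difference was −9.65 points without replicate 2 at 12 h. Among peaks with a −log10 q of at least 5 it was −4.39 points for SMARCA5 and −9.65 for CHD4, and with lists of equal length it was −13.2 points for SMARCA4.

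Gene by gene, 24 of the 57 members had a remodeler peak in fewer libraries at 12 h than at 0 h, 6 alpha, 2 beta and 16 gamma, where 14.3% of all protein-coding promoters did. That share includes promoters with no remodeler peak or with one in all 16 libraries, which cannot differ. The 24 were among 29 members with a peak in 1 to 15 libraries. Of all promoters 8783 had a peak in 1 to 15 libraries, 3137 of them with fewer at 12 h and 3651 with more. More libraries at 12 h were seen at 2 members, Pcdhac2 and Pcdhgb6, where 16.6% of all promoters had more. Both had fewer at 12 h with lists of equal length, and Pcdhgb6 also among peaks with a −log10 q of at least 5. The mean difference was −2.52 libraries for gamma genes, −0.643 for alpha, −0.182 for beta and 0.0296 for all protein-coding genes. The median difference was −3 libraries for gamma genes and 0 for the other groups and for all genes.

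At 14 members some remodeler was listed in each 0 h library and in no 12 h library, against 2.95% of all promoters. The reverse was found at no member for any remodeler, against 3.25% of all promoters in at least 1 remodeler (0.397% for CHD4, 0.255% for CHD8, 1.09% for SMARCA4 and 1.58% for SMARCA5). By remodeler the 0 h pattern was seen at 4 members for CHD4 (1.24% of all promoters), 7 for CHD8 (0.82%), 1 for SMARCA4 (0.456%) and 5 for SMARCA5 (0.675%). Among promoters with a 0 h CTCF peak it was seen at 4, 7, 1 and 4 of the 47 members, against 2.43%, 3%, 0.733% and 1.77% of all such promoters. Pcdhgb1 was such a gene for CHD8 and SMARCA5, Pcdhga4 for CHD4 and CHD8, and Pcdhga11 for CHD4 and SMARCA5. The next by position were Pcdha5 for CHD4, Pcdhb3 for SMARCA4, Pcdhga1 and Pcdhga2 for CHD8, Pcdhga7 for SMARCA5, Pcdhgb4 for CHD8 and Pcdhga8 for CHD4.

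Pcdhga11, a variable gene of the gamma group, had the largest difference of all members when every listed peak was counted. Among peaks with a −log10 q of at least 5 its difference, in mean libraries summed over the 4 remodelers, was −1.5 in place of −3, smaller than at Pcdhga12 (−2.5) and Pcdhgb1 (−2). Counting every listed peak, it had a remodeler peak in all 8 libraries at 0 h and in 2 at 12 h. Its CHD4 peaks had fold enrichments of 3.29 and 5.68 at 0 h and none was listed at 12 h, and its SMARCA5 peaks had 4.26 and 3.57 at 0 h and none at 12 h. Its CHD8 peaks had 5.14 and 2.98 at 0 h and 1 of 3.57 at 12 h, and its SMARCA4 peaks 4.61 and 3.5 at 0 h and 1 of 2.13 at 12 h. Its CTCF peak had 20.3 at 0 h and was not listed at 12 h. Pcdhgb1 had a peak in 6 libraries at 0 h and 1 at 12 h. Pcdhga4 had 6 and 2, Pcdhga2 had 7 and 3, Pcdhga12 had 8 and 4, and Pcdhga1 had 7 and 4. Pcdhga7 had 4 and 0. At Pcdhgb4 the counts were 2 and 2, since SMARCA4 and SMARCA5 each gave a peak at 12 h while both CHD8 peaks of 0 h were not listed.

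In the exact two-sided stratified permutation test over the 16 libraries, no promoter of the 8783 tested passed an adjusted p of 0.05 (Benjamini-Hochberg, 0% called fewer and 0% called more). Of these promoters 29 were members. The 26 members without a remodeler peak and the 2 with one in all 16 libraries could not enter the test. At an unadjusted p under 0.05 the test gave 14 promoters with fewer libraries at 12 h (0.159%) and 8 with more (0.0911%), and 1 of the 14 was a member. It was Pcdhga11, with an exact permutation p of 0.0139 and an adjusted p of 1. Leaving out 1 library at a time gave 0 promoters past the adjusted threshold in every case. At an unadjusted p under 0.05 it gave 15 to 30 promoters with fewer libraries at 12 h and 5 to 18 with more. The members among them, all with fewer libraries, numbered 5 without replicate 1 of CHD4 or replicate 2 of SMARCA4 at 0 h, and 3 without replicate 2 of SMARCA4 or replicate 1 of SMARCA5 at 12 h. They numbered 2 without replicate 1 of CHD4 or SMARCA4 at 12 h, replicate 2 of CHD8 at 0 h or replicate 1 of SMARCA5 at 0 h, and 1, Pcdhga11, in the other cases. With lists of equal length 26 and 9 promoters, 3 of them members (Pcdhgb1, Pcdhga4 and Pcdhga11), had an unadjusted p under 0.05, and among peaks with a −log10 q of at least 5 the 1 member was Pcdhga12. With labels exchanged within replicate numbers, 0 promoters passed the adjusted threshold, and 8 and 1 had an unadjusted p under 0.05. The smallest p the relabelling can give is 0.00154, the smallest exact permutation p found was 0.00463, and after adjustment over 8783 promoters the smallest value was 1. With that many promoters, one at the smallest possible p passes only if many others reach it too. The test thus had little power for a difference at a single promoter.

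The C-type genes and Pcdhb1, of which Pcdhac1 alone had a CTCF peak, mostly had similar counts of remodeler peaks at both times. Pcdhgc3 had a peak in all 16 libraries, as did Pcdhga10, a variable gene with CTCF, where 31% of all protein-coding promoters had one. At Pcdhgc3 the fold enrichments at 0 h and 12 h were 4.04 and 6.24, then 5.51 and 3.43 for CHD4. For CHD8 they were 5.74 and 4.86, then 8.6 and 4.41. For SMARCA4 they were 4.7 and 3.92, then 4.75 and 4.51, and for SMARCA5 2.88 and 4.16, then 4.52 and 2.99. Pcdhgc4 had a peak in 8 libraries at 0 h and in 6 at 12 h, the 2 missing ones being both SMARCA5 libraries of 12 h. Pcdhgc5 had 4 and 4, Pcdhac2 had 5 and 6, and Pcdhb1 had 1 and 1. Pcdhac1, the C-type gene with a CTCF fold enrichment of 25, had no remodeler peak in any library. Among the 47 members with CTCF, the gamma genes Pcdhga10 and Pcdhgb7, which had 7 libraries at 0 h and 6 at 12 h, and Pcdhgb6, with 3 and 4, were among those with similar counts at both times.

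The remodelers were also examined at the CTCF sites themselves, taken as the 0 h summit with 100 bp to either side. Of the 18 gamma promoter sites CHD4 occupied 5 and 10 in the 0 h libraries and 3 and 1 in those of 12 h. CHD8 had 14 and 11, then 1 and 2. SMARCA4 had 14 and 9, then 6 and 7, and SMARCA5 had 5 and 10, then 5 and 1. Both 12 h libraries lay below both 0 h libraries for CHD4, CHD8 and SMARCA4, while those of SMARCA5 touched. At the 22 cluster sites outside promoters CHD4 had 10 and 6, then 4 and 2. CHD8 had 10 and 8, then 7 and 6, SMARCA4 had 10 and 8, then 9 and 9, and SMARCA5 had 3 and 4, then 2 and 3. For CHD8 the gamma promoter sites thus held most of the difference, and the counts at the other sites lay close together.

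**Figure D5:**
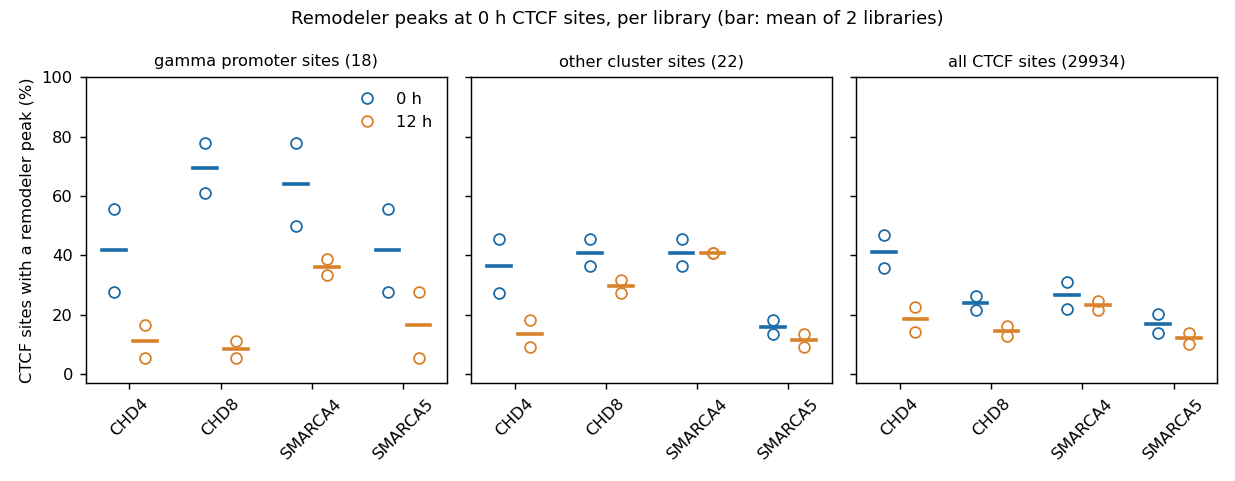
Share of 0 h CTCF sites overlapped by a remodeler peak in each library (vertical, percent) at 0 h (blue) and 12 h of IAA (orange), for the 18 sites at gamma promoters, the 22 cluster sites outside promoters and all 29934 CTCF sites. Circles are libraries and bars the mean of the 2 libraries. CHD8 has 14 and 11 of the gamma sites at 0 h and 1 and 2 at 12 h.

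Over all 71 sites of the cluster the mean share with a CHD4 peak was 22.5% at 0 h and 7.75% at 12 h, against 41.3% and 18.4% of all CTCF sites. For CHD8 the shares were 30.3% and 11.3%, against 23.9% and 14.6%. For SMARCA4 they were 31.7% and 21.8%, against 26.5% and 23.1%, and for SMARCA5 15.5% and 7.75%, against 17% and 12.1%. The differences of −14.8, −19, −9.86 and −7.75 points stood beside −22.9, −9.34, −3.37 and −4.93 points at all CTCF sites. They were −3.52 points for SMARCA4 without its replicate 1 at 0 h and −16.2 points without its replicate 2 at 0 h, and −3.52 or −12 points for SMARCA5 without replicate 2 or replicate 1 at 0 h. Among peaks with a −log10 q of at least 5 they were −9.15 points for CHD4, −3.52 for SMARCA4 and −1.41 for SMARCA5. Over the whole CTCF peak the SMARCA5 difference was −14.8 points. The difference between cluster sites and all sites was not tested.

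Counted over the whole cluster with its flanks, remodeler peaks of any place were compared as numbers and relative to list length. The CHD4 lists held 49 and 100 peaks there without IAA and 51 and 50 with it. Those of CHD8 held 52 and 40, then 43 and 36. SMARCA4 had 64 and 47, then 49 and 56, and SMARCA5 35 and 49, then 43 and 34. In these numbers the libraries of the 2 times overlapped for all 4 remodelers. Per 10000 peaks of the library's own list the overlap was seen for CHD4 alone, with 4.38 and 5.34 at 0 h and 4.86 and 3.13 at 12 h. For CHD8 the scaled values were 10 and 9.78, then 8.29 and 8.51. For SMARCA4 they were 6.92 and 6.67, then 5.08 and 5.46, and for SMARCA5 6.31 and 6.69, then 6.05 and 5.07, so that both 12 h libraries of these 3 remodelers lay below both 0 h libraries.

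Other genes of the region and of the family are given for comparison. Taf7, a TFIID subunit gene between the beta and gamma groups, had a remodeler peak in all 16 libraries, and its neighbour Slc25a2 had one in 4 libraries at 0 h and 3 at 12 h. The read-through records Gm42416, Gm37013 and Gm37388, which start inside the alpha group, had 2, 1 and 0 libraries at 0 h and none at 12 h. Gm42416 starts at 36952741, beside the start of Pcdha4 at 36952648, and its peaks are those of Pcdha4 counted again. Of the 11 non-clustered protocadherins, which lie elsewhere in the genome, Pcdh1 had a CTCF peak at 0 h. Their median was 6 libraries at 0 h and 6 at 12 h, with fewer at 12 h in 4 and more in 3. Of 16 genes for proteins of chromosome architecture and silencing, several of them known to act on the cluster, 8 had a CTCF peak at 0 h, and the median was 8 libraries at both times, with fewer at 12 h in 3 and more in 3. In neither list did a gene pass an adjusted p of 0.05 in the exact permutation test, as no promoter did.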

How the data were processed

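The 20 deposited peak lists, 1 per library, were read as narrowPeak files; the 10 inputs were not used. The submitters' processing notes name Trim Galore, Bowtie2, MACS2 and deepTools, without versions or roles, and the builds mm10 and hg38. Column 7 of the deposited lists was read as the fold enrichment, a ratio to local background, and columns 8 and 9 as the −log10 p and −log10 q given by the authors' peak caller. The lowest −log10 q was 1.3. The lists hold no counts, so depth is unknown. All peaks ended within GRCm38 chromosome lengths. Promoters came from GENCODE M21. The exact permutation test exchanged the times within each remodeler (1296 relabellings) at promoters with a peak in 1 to 15 of 16 libraries. It was run on simulated peak calls whose changed promoters had a peak in every 0 h library and in no 12 h library. The adjustment of p was not checked there. Members and lists were chosen with earlier results of these data known. Members were named by rule: the 3 highest CTCF peaks per group, any 12 h CTCF or SMC1A peak, up to 10 members with a remodeler in each library of one time and none of the other, C-type genes and Pcdhb1, and those with most or fewest libraries. Other genes named were chosen after their values were seen. CTCF peaks were named by height, by a 12 h peak, or by SMC1A away from promoters. Alternatives covered the window, start sites, summit, −log10 q, list length, motif rule, replicate block and leaving out each library. Python 3.11.15, NumPy 2.4.6 and SciPy 1.17.1 were used.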

Additional observations from a re-analysis of the deposited data

How the results depend on the processing

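With a 2 kb window the CHD8 difference was −12.3 points over all members and −31 points over gamma genes. Among peaks with a −log10 q of at least 5 the SMARCA5 difference was −4.39 points over all members and −11.9 over gamma genes, and the SMC1A difference was −5.26 points. At cluster CTCF sites that threshold gave −9.15 points for CHD4, −14.8 for CHD8 and −1.41 for SMARCA5, and the whole CTCF peak gave −20.4 for CHD4 and −14.8 for SMARCA5. The cause was not tested. Leaving out 1 library at a time gave, for the members, −26.3 to −7.02 points for CHD4, −20.2 to −14.9 for CHD8, −20.2 to 2.63 for SMARCA4 and −20.2 to −9.65 for SMARCA5. For gamma genes it gave −50 to −16.7, −52.4 to −38.1, −28.6 to 4.76 and −47.6 to −23.8 points, and for cluster CTCF sites −18.3 to −11.3, −22.5 to −15.5, −16.2 to −3.52 and −12 to −3.52 points. As mean libraries summed over the 4 remodelers, Pcdhga8 was higher at 12 h by 0.5 at the stricter −log10 q, Pcdhgb6 differed by −1 there and by −0.5 with lists of equal length, and Pcdhac2 by −0.5 with lists of equal length.

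Replicate numbers in the labels were shared between times. The correlations of same-numbered deviations were 0 for CHD4, 0.23 for CHD8, −0.15 for SMARCA4 and −0.06 for SMARCA5. With 2 libraries per remodeler and time these values cannot decide whether the numbers pair the samples. In CHD4 the replicate 2 lists of both times had narrower peaks in the cluster than the replicate 1 lists. With the replicate block 0 promoters passed an adjusted p of 0.05. With the numbers of SMARCA4 crossed, an alternative added after seeing the data, 0 passed and 8 and 1 had an unadjusted p under 0.05, as without crossing. Pcdhga11 had an exact permutation p of 0.00463 to 0.25 over all settings, the highest at the stricter −log10 q. Both strand counts of the motif kept 100% and 0% on the genes' strand under the fixed pattern and with 50 bp around the summit. These alternatives are not independent of the main search. The model was started from the fixed pattern, and the 50 bp search used the same model on part of the same sequence.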
